A study of Mus musculus with 9 samples.

Results

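Interferon-stimulated genes are the transcripts that rise in a cell after interferon binds its surface receptor. The list described here held 34 such mouse genes, named by symbol and function, with earlier results of these data known, out of 19935 genes with a probe set of their own on the array. Of these, 31 were measured. Isg15 and Gbp2 lay only on probe sets shared with another gene and Ifi44 had no named probe set, so these 3 were not analysed here. The measured members were grouped by role as 10 RNA sensors and relatives, 13 effectors, 5 signalling genes and 3 antigen-processing genes, with 1 probe set per gene.

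The measurements came from NIH 3T3 cells, a mouse fibroblast line, in 3 groups that differed in a stably carried lentiviral construct. The control cells carried pLKO.1, which the labels call a control vector in one field and a control shRNA plasmid in another, so whether it held a hairpin is not known. The other groups carried an shRNA against Net (gene Elk3) or against Sap-1 (gene Elk4), ETS-domain partners of serum response factor. All cells sat on fibronectin for 2 hours, spent the night without serum and then received bovine serum for 1 hour, at 10% per the sample protocols and 20% per the series description. Each group held 3 biological replicates with 1 array each. No group lacked serum and none received interferon or virus, and the number of stably transduced lines behind each group is not given. Differences between independently made lines, and any effect of carrying a hairpin, therefore cannot be told apart from an effect of the targeted gene.

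Type I interferons signal through receptor-bound JAK kinases to a transcription factor complex that includes STAT2 and IRF9 and binds a DNA element called the interferon-stimulated response element, or ISRE. The genes switched on in this way include sensors that detect viral RNA, effectors that block viral replication, components of the pathway itself and parts of the machinery that presents peptides on MHC class I. Fibroblasts carry the receptor and can also make interferon beta themselves when RNA sensors signal through the adaptor MAVS.

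The promoters of the members were searched first, because the ISRE is the sequence by which these genes are known to be addressed. RefSeq windows from 250 bases before to 50 bases after the start site, on build GRCm38.p6, were matched by symbol for 26 of the 34 genes and for 23 of the 31 measured. The ISRE core was searched as GAAANNGAAA on both strands, which reads TTTCNNTTTC on the opposite strand. It lay in the window of 12 of those 23 members and in 3.89% of 15612 tested genes with a window. The sequences below show the bases before the start site for members with that core, chosen to set genes that differed between the groups (Ifit1, Ifit3, Gbp3, Trim30a and Stat2) beside genes that did not pass the test (Oas1a and Oas3). Capitals mark the ISRE core or overlapping cores.
Ifit1, chr19:34640739-34640888, plus strand: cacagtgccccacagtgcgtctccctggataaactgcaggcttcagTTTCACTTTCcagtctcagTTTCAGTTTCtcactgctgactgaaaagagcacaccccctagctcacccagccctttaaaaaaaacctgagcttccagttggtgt
Ifit3, chr19:34583363-34583528, plus strand: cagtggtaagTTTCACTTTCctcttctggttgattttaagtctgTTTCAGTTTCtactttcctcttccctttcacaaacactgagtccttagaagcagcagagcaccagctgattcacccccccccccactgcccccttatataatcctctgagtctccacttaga
Gbp3, chr3:142559894-142560043, plus strand: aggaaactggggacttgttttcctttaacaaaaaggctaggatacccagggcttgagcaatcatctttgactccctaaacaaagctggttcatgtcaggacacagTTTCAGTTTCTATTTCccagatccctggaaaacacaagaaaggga
Trim30a, chr7:104465194-104465343, minus strand: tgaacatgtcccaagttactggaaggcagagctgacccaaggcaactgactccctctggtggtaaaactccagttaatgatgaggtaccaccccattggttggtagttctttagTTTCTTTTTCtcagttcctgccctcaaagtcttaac
Stat2, chr10:128270266-128270497, plus strand: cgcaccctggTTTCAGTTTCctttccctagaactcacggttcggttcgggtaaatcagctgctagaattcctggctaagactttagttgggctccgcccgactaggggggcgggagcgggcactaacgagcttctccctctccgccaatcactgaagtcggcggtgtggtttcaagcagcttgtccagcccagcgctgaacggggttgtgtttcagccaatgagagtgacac
Oas1a, chr5:120907526-120907675, minus strand: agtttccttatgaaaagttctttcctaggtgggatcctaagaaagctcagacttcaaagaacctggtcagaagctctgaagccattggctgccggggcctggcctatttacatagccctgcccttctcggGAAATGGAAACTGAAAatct
Oas3, chr5:120777660-120777809, minus strand: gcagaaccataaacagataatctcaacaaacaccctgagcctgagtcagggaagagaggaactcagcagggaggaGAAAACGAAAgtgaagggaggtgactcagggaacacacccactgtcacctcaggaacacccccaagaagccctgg

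In Ifit1 the cores began at -104 and -85 bases from the start site, and in Ifit3 at -156 and -122. The Gbp3 window held 2 overlapping cores that began at -45 and -39, Oas1a 2 overlapping cores at -20 and -14, and Oas3 a core at -75. Stat2 had its core far upstream, at -222. The GAS element, known from interferon gamma signalling and searched as TTCNNNGAA on both strands, lay in 7 of the 23 windows and in 8.99% of the tested genes' windows. An ETS core, searched as CCGGAA on both strands, lay in 4 of the 23 (Ifih1, Ifit2, Rsad2 and Stat2) and in 21.98% of all, and no window of a member held a CArG box, the serum response factor site, against 1.63% of all. These matches are descriptions of letters in a window of 300 bases and show neither binding nor a cause.

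The targeted genes were read first as a check of the labels. Elk4 was 11.07 ± 0.05 in control and 9.53 ± 0.02 in Sap-1 knockdown cells on the log2 scale (SD, n = 3 arrays), and Elk3 was 11.51 ± 0.02 in control and 11.08 ± 0.02 in Net knockdown cells. Elk4 was lower in the Net knockdown cells as well, at 10.63 ± 0.04 (limma adjusted p = 2.34e-05), a difference of -0.44 that was -0.28 with the median of the 50 neighbouring genes taken off. The targeted Elk3 differed from control by -0.42 in those cells without that correction, so the uncorrected falls of Elk3 and Elk4 were of like size. Elk3 was also lower in Sap-1 knockdown cells, at 11.38 ± 0.01, a difference of -0.12 (limma adjusted p = 0.0227). The 9 arrays had medians of 7.47 to 7.54, and fibroblast markers such as Col1a1, Col1a2 and Vim were bright, with a mean over 8 markers of 11.45 to 11.77 per array. Of the 8 markers, 7 lay above the median of all genes. The exception was Fap, at 4.66 in control and Net knockdown and 4.69 in Sap-1 knockdown cells. Only 12 of the 31 members had a mean level above the median of all genes, 7.81, and the table holds no detection calls, so a dim member may have no measurable transcript.

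**Figure D1:**
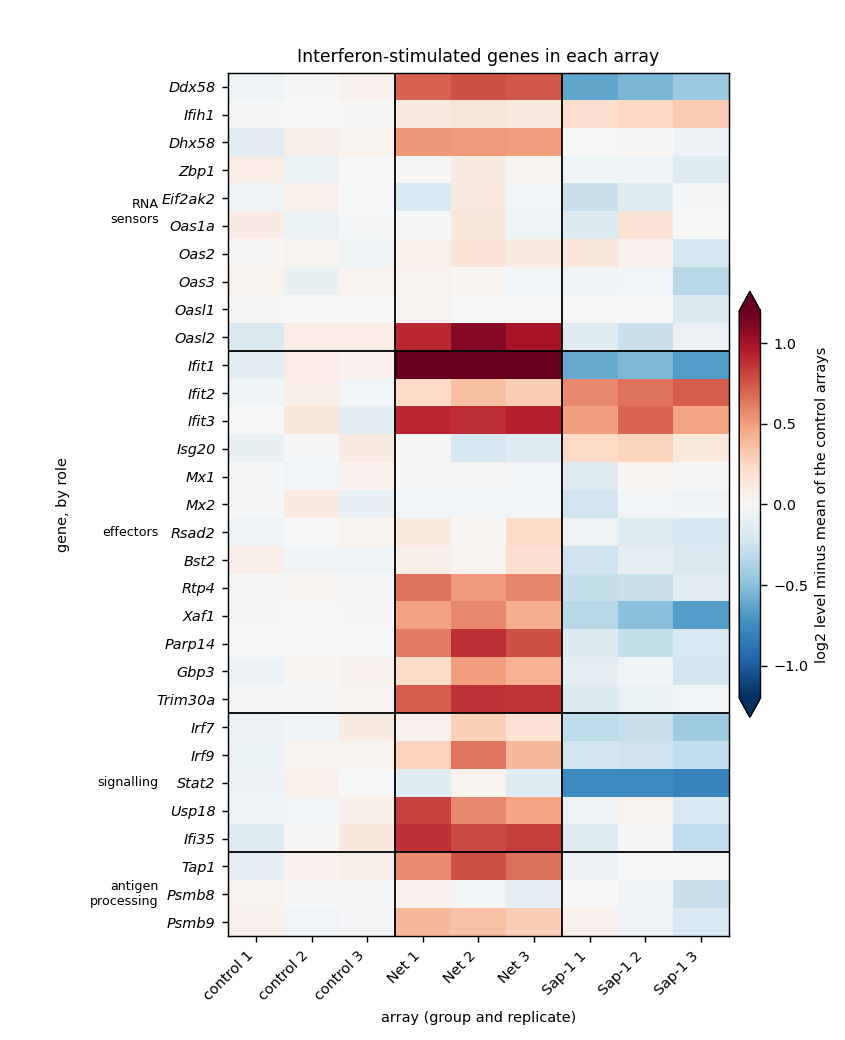
Colour shows the log2 level of each of the 31 measured members (rows, grouped by role) in each of the 9 arrays (columns) minus the mean of the 3 control arrays of that gene; the ends of the scale are arrowed where values run past it. The Net knockdown columns are red for Oasl2, Ifit1, Ifit3 and Trim30a, the Sap-1 knockdown columns are blue for Stat2 and Ifit1 and red for Ifit2 and Ifit3, and the rows of Oas1a, Mx1 and Psmb8 stay pale.

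The comparison of Net knockdown with control cells asks which of these genes differ in fibroblasts that carry the Net knockdown. Of the 31 members, 17 rose, led by Ifit1, Oasl2 and Ifit3. None fell with limma at an adjusted p under 0.05, and none had a lower level at an unadjusted p under 0.05 either. Over all genes tested 13.4% rose and 10.2% fell, 23.6% in all. The members' median difference was 0.30 on the log2 scale, beside -0.00 over all genes. Of the 31 members, 9 were called with a change of at least 1.5-fold, where 2.56% of all genes were. Control and Net knockdown arrays were fully separated for 18 members, all of them higher in the knockdown. Over all genes 34.3% were separated, 18.5% higher and 15.8% lower. Among the 12 brighter members 7 rose, and 23% of all genes above the median level did. In RNA of a whole culture, more cells with a transcript and more transcript per cell cannot be told apart.

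Set against control, the members went both ways in the Sap-1 knockdown cells. Ifit2, Ifit3, Ifih1 and Isg20 rose, and 9 members fell, led by Stat2, Ifit1, Ddx58 and Xaf1. Over all genes 15.8% rose and 13.9% fell, 29.7% in all, so the share of members that rose lay near the background. The members' median difference was -0.11, beside -0.02 over all genes. Of the 31 members, 3 were called with a change of at least 1.5-fold, where 4.46% of all genes were. Without overlap of the arrays 11 members were lower and 4 higher, where 20.2% and 20.8% of all genes were, 41% in all. Among the 12 brighter members 2 rose and 4 fell, and 26.9% and 22.3% of all genes above the median level did. Both knockdown comparisons use the same 3 control arrays, so their values are set side by side here and not correlated.

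Tested directly against each other, Net knockdown cells had higher levels than Sap-1 knockdown cells for 19 members and lower levels for 3, namely Ifit2, Isg20 and Ifih1. Over all genes 14.2% were higher and 13.3% lower in that comparison, 27.5% in all. Arrays of the knockdowns were separated for 20 members higher and 3 lower in Net, and over all genes for 19.6% and 17.8%, together 37.4%. The median difference of the members was 0.41, beside 0.02 over all genes. Of the 31 members, 12 were called with a difference of at least 1.5-fold, where 4.64% of all genes were. All 5 signalling genes were among those higher in Net knockdown cells.

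**Figure D2:**
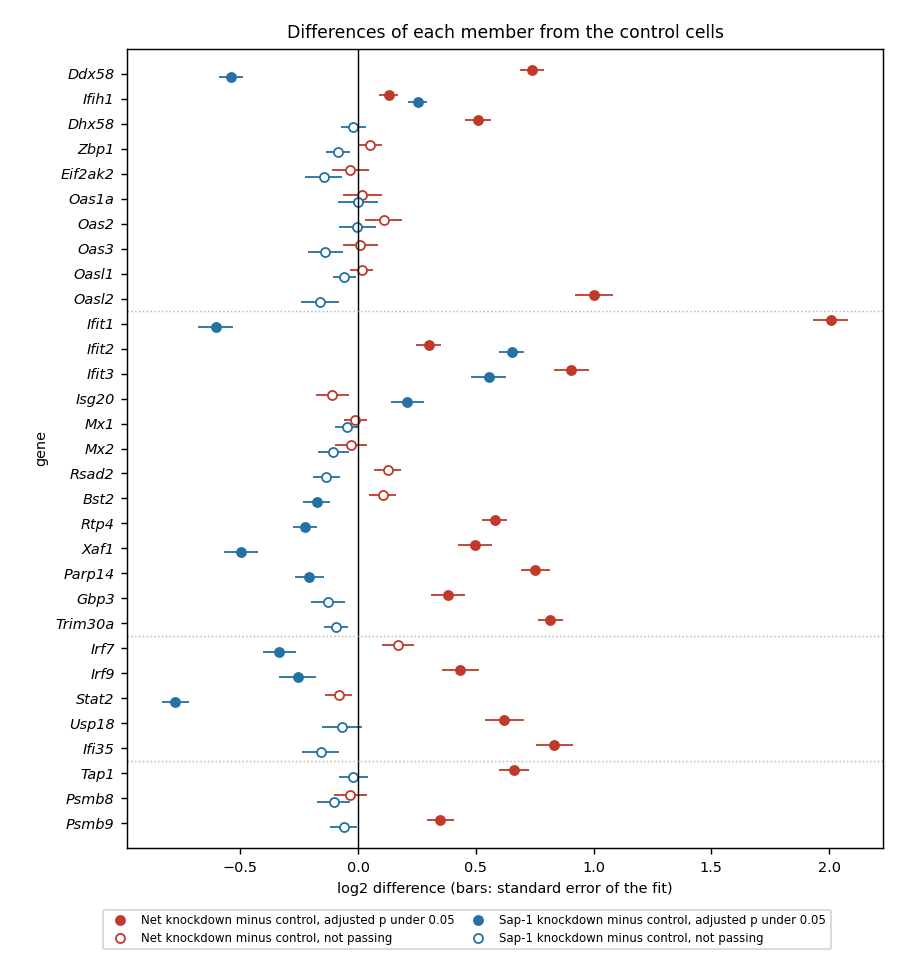
Points show the log2 difference of each member from the control cells in Net knockdown (red) and Sap-1 knockdown cells (blue), with bars for the standard error of the fit and filled points for an adjusted p under 0.05. The red points lie at or right of 0.13 wherever they are filled, up to 2.01 for Ifit1, whereas the filled blue points run from -0.78 for Stat2 to 0.65 for Ifit2.

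Of the 10 RNA sensors and relatives, 4 rose and 0 fell in Net knockdown cells, with 0 lower at an unadjusted p under 0.05 in the limma fit. Over all genes 13.4% rose and 10.2% fell there. In Sap-1 knockdown cells 1 rose and 1 fell, near the 15.8% and 13.9% over all genes. RIG-I-like receptors bind viral RNA in the cytoplasm and signal through MAVS, and Ddx58 encodes RIG-I itself. Ddx58 read 9.83, 9.91 and 9.94 in the control arrays, 10.61, 10.66 and 10.64 in Net knockdown and 9.28, 9.35 and 9.45 in Sap-1 knockdown arrays. The 3 groups did not overlap, with Net highest and Sap-1 lowest. The rise in Net knockdown cells was 0.74 (SE 0.05, limma adjusted p = 2.06e-06), a 1.67-fold higher level. In Sap-1 knockdown cells Ddx58 fell by 0.54 (SE 0.05, adjusted p = 1.17e-05), and the direct difference between the knockdowns was 1.28, or 2.43-fold.

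The other RIG-I-like receptors did not follow Ddx58 in the Sap-1 knockdown cells. Dhx58, which encodes the regulator LGP2, read 6.44, 6.64 and 6.60 in control, 7.08, 7.07 and 7.06 in Net knockdown and 6.55, 6.58 and 6.49 in Sap-1 knockdown arrays. It rose by 0.51 in Net knockdown cells (SE 0.05, adjusted p = 5.29e-05), while the Sap-1 knockdown arrays overlapped control with a difference of -0.02 (adjusted p = 0.825). Ifih1, which encodes MDA5, rose by 0.13 in Net knockdown cells (adjusted p = 0.0331) and by 0.25 in Sap-1 knockdown cells (adjusted p = 0.000462). Its call in Net knockdown cells was lost under 11 of the 18 other settings, with the difference between 0.12 and 0.14 throughout.

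The 2-5A synthetases make the oligoadenylates that activate the RNA-degrading enzyme RNase L. Oas1a, Oas2 and Oas3 differed from control by 0.02, 0.11 and 0.01 under the Net construct and by -0.00, -0.00 and -0.14 under the Sap-1 construct, and none passed. Their relative Oasl2 did: it read 7.25, 7.51 and 7.51 in control and 8.33, 8.52 and 8.41 in Net knockdown arrays, against 7.27, 7.16 and 7.35 in Sap-1 knockdown arrays. All Net knockdown arrays lay above all others, and the rise over control was 1.00 (SE 0.08, adjusted p = 6.47e-06), a 2-fold higher level. The Sap-1 difference of Oasl2 was -0.16 (adjusted p = 0.17). Its neighbour in name, Oasl1, lay at 0.01 and -0.06 in the 2 comparisons with control and passed in neither, nor did Zbp1, a sensor of Z-form nucleic acid (0.05 and -0.08), or Eif2ak2, the gene of the RNA-activated kinase PKR (-0.03 and -0.15). Oas1a belongs to a family of close copies and its value is uncertain. Oasl1 held an identical value, 8.18407, in arrays of all 3 groups. Repeats also occurred in members with a call. Oasl2 held 7.50673 in control replicates 2 and 3, and Ifih1 held 6.44046 in Net knockdown replicates 1 and 3. Bst2 held 8.52412 in control replicates 2 and 3, and Psmb9 held 8.40221 in replicate 1 of control and of Sap-1 knockdown. What such repeats mean for levels and spreads was not tested.

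Effectors held the largest difference of the list. IFIT proteins bind foreign RNA and hinder its translation. Ifit1 read 6.99, 7.21 and 7.18 in control arrays, 9.01, 9.27 and 9.12 in Net knockdown and 6.52, 6.59 and 6.45 in Sap-1 knockdown arrays. The groups stood apart, with all Net knockdown arrays above control and all Sap-1 knockdown arrays below it. Ifit1 rose by 2.01 in Net knockdown cells (SE 0.08, limma adjusted p = 2e-08), a 4.02-fold higher level, and fell by 0.61 in Sap-1 knockdown cells (SE 0.08, adjusted p = 9.54e-05). Between the knockdowns it differed by 2.61, or 6.11-fold.

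Ifit2 and Ifit3 lie on the same chromosome as Ifit1 but were higher than control in both knockdowns. Ifit2 read 9.06, 9.19 and 9.07 in control, 9.35, 9.46 and 9.40 in Net knockdown and 9.68, 9.76 and 9.83 in Sap-1 knockdown arrays. It rose by 0.30 in Net knockdown cells (adjusted p = 0.002) and by 0.65 in Sap-1 knockdown cells (SE 0.05, adjusted p = 4.72e-06), and differed by -0.35 between Net and Sap-1 (adjusted p = 0.000492). The order of Ifit2 was thus control, Net, Sap-1, and that of Ifit3 was control, Sap-1, Net, without overlap of the arrays in either gene. Ifit3 read 6.99, 7.14 and 6.86 in control, 7.89, 7.88 and 7.92 in Net knockdown and 7.48, 7.69 and 7.47 in Sap-1 knockdown arrays. Its rises were 0.91 (SE 0.07, adjusted p = 8.5e-06) and 0.55 (SE 0.07, adjusted p = 0.000172), and the knockdowns differed by 0.35 (adjusted p = 0.00415). Ifit1 and Ifit3 have close relatives in the mouse genome and cross-hybridisation was not tested.

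**Figure D3:**
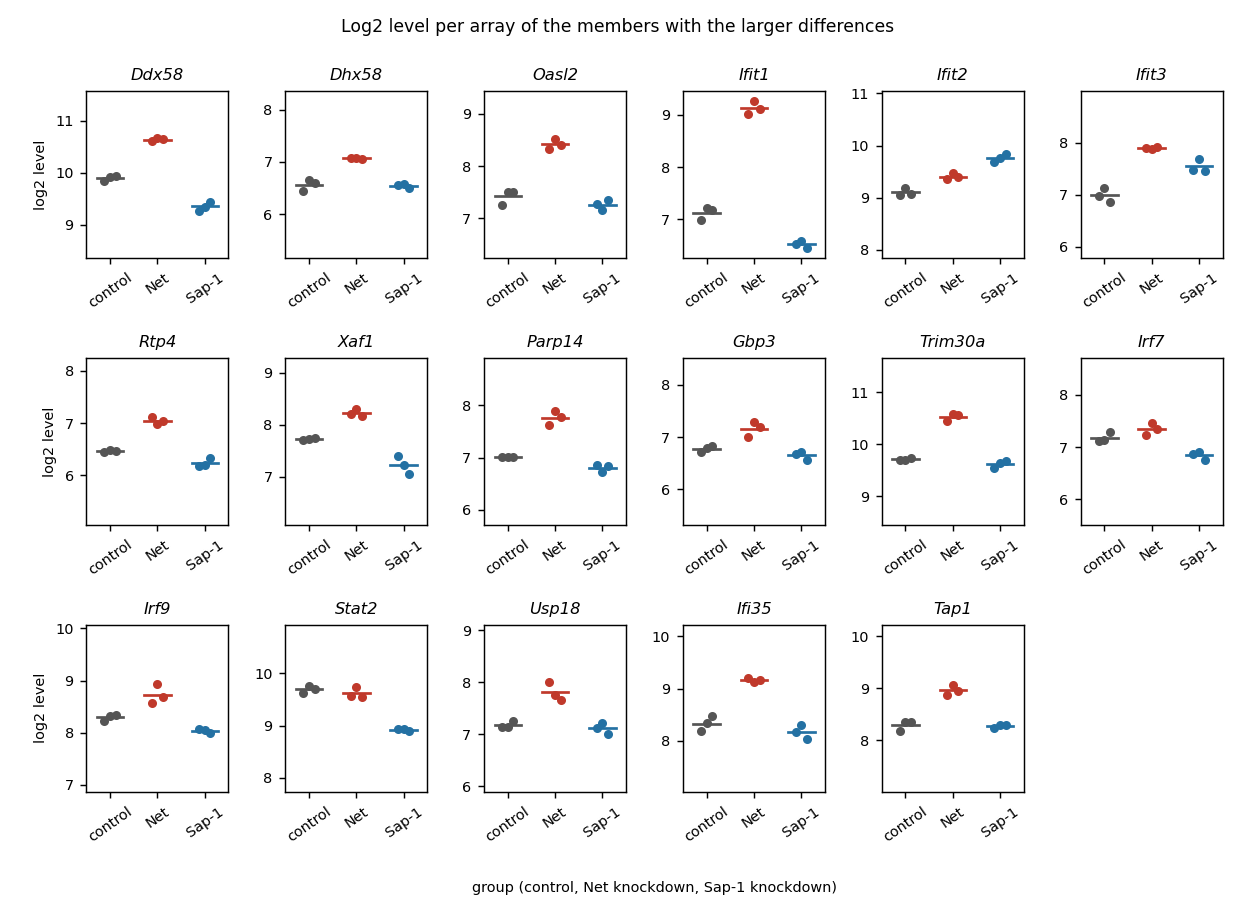
Each panel gives the log2 level of 1 gene in the 9 arrays (points) with the mean of each group (lines) for the 17 members called in at least 1 comparison with a difference of 0.5 or more; every vertical axis spans the same range of log2 units. Ifit1 shows the widest gap, from 6.45 in a Sap-1 knockdown array to 9.27 in a Net knockdown array, and Ifit2 is the panel in which the Sap-1 knockdown arrays are highest.

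A further set of effectors was higher in Net knockdown than in both other groups. Trim30a, a TRIM-family gene that restrains innate signalling, read 9.70, 9.69 and 9.74 in control, 10.44, 10.57 and 10.57 in Net knockdown and 9.53, 9.63 and 9.68 in Sap-1 knockdown arrays. It rose by 0.82 in Net knockdown cells (SE 0.05, adjusted p = 1.12e-06), while the Sap-1 difference of -0.09 did not pass (adjusted p = 0.218), although the arrays did not overlap. Trim30a has close copies beside it and is uncertain. Gbp3, a guanylate-binding protein gene of a family of close relatives, read 6.71, 6.80 and 6.83 in control, 7.0, 7.28 and 7.20 in Net knockdown and 6.67, 6.72 and 6.55 in Sap-1 knockdown arrays. Its rise in Net knockdown cells was 0.38 (SE 0.07, adjusted p = 0.00268), and control and Sap-1 knockdown arrays overlapped, with a difference of -0.13 (adjusted p = 0.229).

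In 3 more effectors the control lay between the knockdowns, as in Ifit1, with a call on either side. Xaf1, a gene linked to cell death, read 7.71, 7.72 and 7.74 in control, 8.21, 8.30 and 8.16 in Net knockdown and 7.39, 7.23 and 7.06 in Sap-1 knockdown arrays. Its differences from control were 0.50 (SE 0.07, adjusted p = 0.00048) and -0.50 (SE 0.07, adjusted p = 0.000302), equal in size and opposite in sign. Parp14, an ADP-ribosyltransferase gene, read 7.01, 7.02 and 7.01 in control, 7.63, 7.89 and 7.78 in Net knockdown and 6.85, 6.73 and 6.84 in Sap-1 knockdown arrays. It rose by 0.75 in Net knockdown cells (SE 0.06, adjusted p = 8.06e-06) and fell by 0.21 in Sap-1 knockdown cells (adjusted p = 0.0248), a fall whose call was lost under 7 of 18 other settings. Rtp4 read 6.45, 6.49 and 6.46 in control, 7.12, 6.97 and 7.05 in Net knockdown and 6.18, 6.20 and 6.34 in Sap-1 knockdown arrays. It rose by 0.58 (SE 0.05, adjusted p = 1.69e-05) and fell by 0.23 (adjusted p = 0.00677), and its arrays did not overlap between any of the groups.

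The remaining effectors had small differences. Bst2, which encodes the virus-tethering protein tetherin, fell by 0.18 in Sap-1 knockdown cells (adjusted p = 0.0386) with a difference of 0.10 in Net knockdown cells, and the call was lost under 8 of 19 other settings. Isg20, an RNA exonuclease gene, rose by 0.21 in Sap-1 knockdown cells (adjusted p = 0.0425), a call lost under 9 of 19 settings, and its difference between Net and Sap-1 was -0.32 (adjusted p = 0.00481). Rsad2, the gene of viperin, passed in neither comparison with control (0.13 and -0.14) but differed by 0.26 between Net and Sap-1 (adjusted p = 0.00482). The GTPase genes Mx1 and Mx2 lay at 5.02 and 5.12 in Net knockdown and 5.03 and 5.15 in control cells. In Sap-1 knockdown cells they lay at 4.98 and 5.05, and no comparison passed. Both were below 7.81, the median level of all genes, so they may have no measurable transcript. The 3 Net knockdown arrays and replicate 2 of the Sap-1 knockdown held an identical value of Mx2, 5.12471.

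Signalling genes were the role in which Stat2 stood out. STAT2 and IRF9 are subunits of the factor that binds the ISRE. Stat2 read 9.63, 9.76 and 9.71 in control, 9.56, 9.74 and 9.55 in Net knockdown and 8.94, 8.93 and 8.90 in Sap-1 knockdown arrays. It fell by 0.78 in Sap-1 knockdown cells (SE 0.06, limma adjusted p = 1.77e-06), to a level 1.71-fold lower than control, while the Net knockdown arrays overlapped control at -0.08 (adjusted p = 0.379). Irf9 read 8.22, 8.33 and 8.34 in control, 8.57, 8.94 and 8.69 in Net knockdown and 8.07, 8.05 and 8.0 in Sap-1 knockdown arrays. It rose by 0.43 in Net knockdown cells (SE 0.08, adjusted p = 0.00205) and fell by 0.26 in Sap-1 knockdown cells (adjusted p = 0.0303), a fall that lost its call under 6 of 19 other settings.

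Irf7, the transcription factor gene that amplifies interferon alpha production, read 7.11, 7.14 and 7.29 in control, 7.23, 7.47 and 7.35 in Net knockdown and 6.87, 6.91 and 6.76 in Sap-1 knockdown arrays. Control and Net knockdown arrays overlapped (0.17, adjusted p = 0.111), and Irf7 fell by 0.33 in Sap-1 knockdown cells (SE 0.07, adjusted p = 0.00334). Usp18, which removes ISG15 from proteins and dampens receptor signalling, passed in the Net knockdown and not in the Sap-1 knockdown comparison. It read 7.14, 7.15 and 7.25 in control, 8.0, 7.76 and 7.65 in Net knockdown and 7.12, 7.22 and 7.0 in Sap-1 knockdown arrays, with a rise of 0.62 in Net knockdown cells (SE 0.08, adjusted p = 0.000292) and a Sap-1 difference of -0.07 (adjusted p = 0.613). Ifi35 read 8.18, 8.34 and 8.47 in control, 9.21, 9.12 and 9.16 in Net knockdown and 8.17, 8.31 and 8.03 in Sap-1 knockdown arrays, and rose by 0.83 in Net knockdown cells (SE 0.08, adjusted p = 2.6e-05). Usp18 and Ifi35 were thus high in the Net knockdown arrays and overlapped between the other groups.

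Of the 3 antigen-processing members, 2 rose in the Net knockdown cells, where 13.4% of all genes did. These 2, Tap1 and Psmb9, are neighbours on opposite strands of the same chromosome, and their promoter windows overlap. Whether they changed independently of each other was not tested, so they may not be separate cases beside that share. Tap1, a subunit of the pump that moves peptides into the endoplasmic reticulum, read 8.17, 8.35 and 8.36 in control, 8.86, 9.06 and 8.95 in Net knockdown and 8.23, 8.30 and 8.29 in Sap-1 knockdown arrays. It rose by 0.66 in Net knockdown cells (SE 0.06, limma adjusted p = 2.41e-05). Psmb9, an immunoproteasome subunit gene, rose by 0.35 (SE 0.06, adjusted p = 0.00115), from 8.35 ± 0.05 to 8.70 ± 0.05 (SD, n = 3). Psmb8, its partner subunit, had differences of -0.03 (Net) and -0.10 (Sap-1) and passed in neither. In Sap-1 knockdown cells 0 of the 3 passed the limma test and 0 had an unadjusted p under 0.05.

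The calls were also counted by the promoter letters, with no test. In Net knockdown cells 6 of the 12 measured members with the core rose and 7 of the 11 without it did. Among all genes tested 13.4% rose there. The 7 that rose without the core include Tap1 and Psmb9, whose windows overlap, so the shared bases were counted under both genes. In Sap-1 knockdown cells 2 of the 12 with the core rose and 4 fell, and 2 of the 11 without it rose and 3 fell. The core was present in Ifit1, which had the largest difference, and also in Oas1a and Oas3, which did not pass. Ifit1, Oas1a and Oas3 all lay below the median level of all genes, and a dim gene that did not pass may have no measurable transcript. Oasl2, Tap1 and Ifi35 rose in Net knockdown cells with no such letters in their windows, which says nothing of sites elsewhere.

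**Figure D4:**
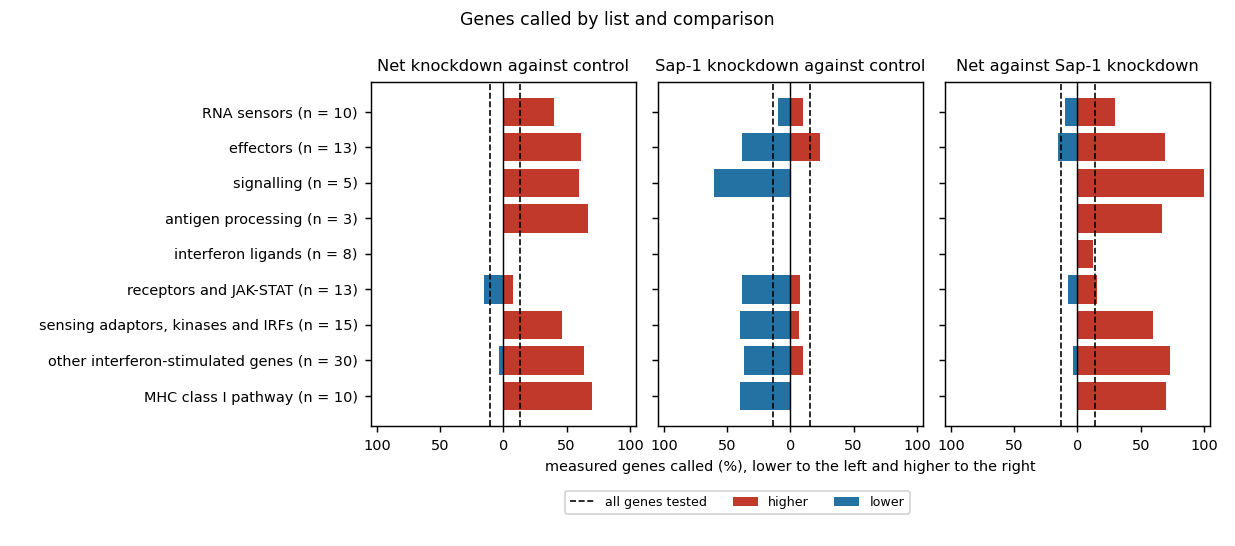
Bars give the share of measured genes called higher (red, to the right) or lower (blue, to the left) in each list, for the 3 comparisons, with dashed lines at the share over all genes tested and the number of measured genes beside each list. In the Net knockdown panel the bars of 8 of the 9 lists include red, the exception being the interferon ligands, and in the panel of Net against Sap-1 knockdown all 5 signalling genes are higher.

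The other parts of the pathway were read from lists of genes outside the members. None of 8 interferon ligand genes passed the limma test against control in either knockdown, with 1 lower in each at an unadjusted p under 0.05. Only 2 of the 8 lay above the median level of all genes, so a dim ligand gene may have no measurable transcript. Between the knockdowns 1 passed, Ifne, which was higher in Net by 0.23 (limma adjusted p = 0.0348) with overlapping arrays. Ifnb1, the gene of interferon beta, lay at 5.75 ± 0.03 in Net knockdown, 5.76 ± 0.07 in control and 5.76 ± 0.09 in Sap-1 knockdown cells (SD, n = 3). Of 13 receptor and JAK-STAT genes, 1 rose and 2 fell in Net knockdown cells and 1 rose and 5 fell in Sap-1 knockdown cells. These genes were bright, 12 of the 13 lying above the median level of all genes. Among all genes above that level 23% rose and 17.7% fell in Net knockdown cells, and 26.9% rose and 22.3% fell in Sap-1 knockdown cells. The receptor gene Ifnar1 fell in both, by 0.26 and 0.28, the kinase gene Jak2 by 0.34 and 0.44, and Stat3 rose by 0.16 in Net knockdown cells and fell by 0.61 in Sap-1 knockdown cells (SE 0.05, adjusted p = 1.99e-06).

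Of 15 sensing adaptors, kinases and interferon regulatory factors, 7 rose and 0 fell in Net knockdown cells, with 0 lower at an unadjusted p under 0.05 as well. Of the 15, 13 lay above the median level, where 23% of all genes rose. In that list Tlr3, an endosomal receptor for double-stranded RNA, rose by 0.83 (SE 0.07), Irf1 by 0.60 (SE 0.06), Irf2 by 0.47 (SE 0.06) and Sting1, the adaptor of DNA sensing, by 0.43 (SE 0.07). In Sap-1 knockdown cells 1 gene of the list rose, Cgas by 0.23, and 6 fell, where 22.3% of all genes above the median level fell. Ikbke, a kinase gene of the RNA-sensing pathway, fell by 0.88 (SE 0.06, adjusted p = 7.68e-07), Sting1 by 0.50, Irf1 by 0.28 and the RNA editor gene Adar by 0.21.

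Interferon-stimulated genes outside the members had a like balance. Of 30 measured, 19 rose and 1 fell in Net knockdown cells, with a median difference of 0.31. Of the 18 above the median level 13 rose, where 23% of all such genes did. Sp100, a nuclear body gene, rose by 1.46 (SE 0.06), Lgals3bp by 1.34 (SE 0.07), Gbp7 by 1.01 (SE 0.09) and Ifi203 by 0.83 (SE 0.06), and Pml fell by 0.19. In Sap-1 knockdown cells 3 rose and 11 fell, with a median of -0.16. Of the 18 brighter ones 7 fell, where 22.3% of all such genes did. Parp12 fell by 1.10 (SE 0.05, adjusted p = 4.02e-08), Ifi203 by 0.59, Trim21 by 0.51 and Ifitm3 by 0.46, and Irgm1 rose by 0.47.

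Genes of the MHC class I pathway were higher in Net knockdown cells in 7 of 10 cases and lower in none, with 0 lower at an unadjusted p under 0.05. Psmb10, the third immunoproteasome subunit gene, rose by 1.11 (SE 0.07, limma adjusted p = 1.63e-06), the peptide-loading gene Tapbp by 0.48, the proteasome activator gene Psme1 by 0.41 and Tap2 by 0.40. In Sap-1 knockdown cells 4 of the 10 fell and none rose, nor at an unadjusted p under 0.05. All 10 lay above the median level, where 23% of all genes rose in Net knockdown cells and 22.3% fell in Sap-1 knockdown cells. In the latter Tapbp and Tap2 fell by 0.51 each, so that they differed between the knockdowns by 0.99 and 0.91.

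Markers of immune cells, which express many of these genes, were read beside the members. Of 10 macrophage markers, 2 were higher in Net knockdown cells, Cd14 by 0.41 and Cd68 by 0.23, and Cd68 fell by 0.23 in Sap-1 knockdown cells where Cd14 rose by 0.21. The mean of the list ran from 6.65 to 6.70 over the control arrays, 6.73 to 6.76 over Net knockdown and 6.62 to 6.69 over Sap-1 knockdown arrays. The defining markers Ptprc, Csf1r and Adgre1 had differences of -0.03, -0.04 and 0.01 in Net knockdown cells and did not pass. Of 7 lymphocyte markers 0 rose by the limma test in either knockdown, with 0 higher at an unadjusted p under 0.05, and 1 fell, Nkg7 in Sap-1 knockdown cells. Of 7 plasmacytoid dendritic cell markers, a list that includes the member Bst2, 0 passed in Net knockdown cells, with 1 higher at an unadjusted p under 0.05, and 4 fell in Sap-1 knockdown cells. Among 6 endothelial markers 2 rose in Net knockdown cells, Tek by 1.84 and Emcn by 0.27, and 2 rose and 1 fell in Sap-1 knockdown cells. Of the 8 fibroblast markers 2 fell in Net and 3 in Sap-1 knockdown cells, where Pdgfra fell by 1.74. Over all genes 13.4% rose and 10.2% fell in Net knockdown cells, and 15.8% rose and 13.9% fell in Sap-1 knockdown cells. Among genes above the median level, as 7 of the 8 fibroblast markers were, 17.7% fell in Net and 22.3% in Sap-1 knockdown cells. The part of these markers in the members' differences was not tested.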

How the data were processed

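Total RNA from 9 samples was measured on 9 Mouse Gene 1.0 ST arrays of Affymetrix. Values were used as deposited, on the log2 scale; per the submitters' processing notes the authors computed them with RMA in Affymetrix Expression Console. Its version and settings are not given in the sources used here. RMA brings arrays to a common distribution, which hides any shift common to most genes, and it compresses small differences of dim genes. Arrays have no read depth, and their number limits the precision. If replicates share 1 line, p-values measure only the spread between these samples.

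Of 28815 probe sets, 21780 named a single gene, and 21689 of these had an Entrez ID in a RefSeq table of GRCm38.p6 through which symbols were updated. The probe set with the highest mean over the 9 arrays stood for its gene, which left 19935 genes. A model over all 9 arrays was fitted by lmFit and eBayes of limma 3.58.1 under R 4.3.3, with Benjamini-Hochberg adjustment over all genes of a comparison and a threshold of 0.05. The script was checked on simulated data.

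The members and lists were chosen with earlier results of these data known. Array values are printed for the 17 members called in at least 1 comparison with a difference of at least 0.5, and up to 4 called genes per list and direction, by smallest adjusted p, are named outside the members, beside cell type markers and a few well-known genes that did not pass. The other settings were the replicate block, robust variances with an intensity trend, a fit of the 6 arrays compared alone, median centring, cyclic loess, quantile normalization, dim genes left out, probe sets averaged per gene, array weights, the median of 50 neighbouring genes taken off, a threshold of 0.01 and each array left out.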

Additional observations from a re-analysis of the deposited data

How the results depend on the processing

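Of 52 differences of members called in the 3 comparisons, 45 kept their direction and their call under each of the up to 19 other settings tried, and 0 changed sign. The 7 that lost the call under some were small, with sizes of 0.12 to 0.28, and 9 member differences that did not pass gained a call under some setting. Averaging the probe sets of a gene could not change the values of any member, since no measured member had more than 1 probe set. With the median of neighbouring genes taken off, 19 members rose in Net knockdown cells, and 3 rose and 11 fell in Sap-1 knockdown cells. With genes below the median level left out, 7 members rose in Net knockdown cells, 2 rose and 4 fell in Sap-1 knockdown cells, and 8 were higher in Net when the knockdowns were compared, because only 12 of the 31 members were then tested. Leaving out 1 array at a time gave 16 to 17 members higher in Net knockdown cells, 3 to 4 higher and 6 to 9 lower in Sap-1 knockdown cells, and 19 to 20 higher and 2 to 3 lower between the knockdowns. The fall of Elk4 in Net knockdown cells was -0.28 with the median of neighbouring genes taken off, against -0.44.

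Whether the replicate numbers pair the samples is not known. Deviations of same-numbered arrays from their group means correlated at -0.11 to 0.36, and at 0.17 to 0.36 for replicate 1. Differently numbered arrays were not compared in this way. With the replicate block 17 members rose in Net knockdown cells, 3 rose and 8 fell in Sap-1 knockdown cells, and 19 were higher and 3 lower between the knockdowns.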
